A study of Mus musculus with 9 samples.

Results

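The antigen-experienced programme that Th1 and Th17 cells share was described by setting both cytokine-secreting CD4 T cell populations, with equal weight, against naive CD4 T cells of the same mouse strain, BALB/c. All 9 arrays of the series entered the comparison: 3 of Th1 cells, 3 of Th17 cells and 3 of naive cells. The Th1 cells had been sorted as CD3+CD4+, low in CD45RB, interferon gamma-secreting and IL-17A-negative, the Th17 cells as CD3+CD4+, low in CD45RB, IL-17A-secreting and interferon gamma-negative, and the naive cells as CD3+CD4+ and high in CD45RB. Every group, the naive one included, came from spleen and lymph node, was magnetically enriched for CD4 and received PMA (10 ng/ml) and ionomycin (500 ng/ml) for 3 h before the sort, so each value compares stimulated cells with stimulated cells. Only the Th1 and Th17 cells were also selected for secreting a cytokine. Antigen experience and selection for cells that responded therefore cannot be told apart in any comparison with naive cells. A gene belonged to the common programme where the mean of both populations differed from naive cells at an adjusted p under 0.05 (limma, Benjamini-Hochberg over all genes tested) and the Th1 and Th17 means lay within 0.5 log2 of each other. Of 19071 genes tested, 8433 met both conditions.

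A naive CD4 T cell that meets its antigen divides, and some of its progeny persist as effector and memory cells. These cells lose the receptors and transcription factors of recirculating naive cells and gain receptors for tissue homing, inhibitory receptors, and the ability to release cytokines soon after stimulation. CD45RB is a splice form of the phosphatase CD45, encoded by Ptprc, and mouse CD4 T cells lower it after antigen experience. PMA and ionomycin stand in for the diacylglycerol and calcium signals of the T cell receptor, so they act downstream of the receptor itself.

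RNA was hybridised to 1-colour Agilent arrays, and each value below is the log2 signal of a probe minus the 75th percentile of its array, called its level. A change is the mean of the Th1 and Th17 means minus the naive mean. A level of one gene is not comparable with that of another. The share of probes detected above background ranged from 53.4% to 58.3% over the arrays, and replicates of a group correlated with a Pearson r across genes of 0.982 to 0.992. The labels do not say whether replicates came from separate animals, so the p-values rest on a spread between samples that could be technical. The arrays lay on 3 slides. Slide 1 held the 3 naive arrays and Th1 replicate 1, slide 2 held Th1 replicates 2 and 3 with Th17 replicates 1 and 2, and slide 3 held Th17 replicate 3. Naive and Th17 arrays never shared a slide.

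The sort genes followed the gates. The level of Ifng, which encodes interferon gamma, was 1.33, 1.31 and 1.61 on the naive arrays, 9.27, 9.18 and 8.92 on the Th1 arrays and 2.04, 1.17 and 1.96 on the Th17 arrays. Only the Th1 arrays stood apart, and the naive and Th17 arrays overlapped. Il17a read -0.24, -4.69 and -4.16 on the naive arrays, 0.54, -0.43 and -2.40 on the Th1 arrays and 9.04, 9.16 and 9.51 on the Th17 arrays. The Th17 arrays were all above the rest, and naive replicate 1 lay inside the range of the Th1 arrays. Cd3e, which encodes a CD3 chain, was 1.91 ± 0.13 (SE, n = 3 arrays per group, as for every change below) higher in the cytokine-secreting cells, and Cd4 was 0.62 ± 0.12 higher (adjusted p 0.00258). With slide as a block the change of Cd4 was 0.96. Ptprc did not pass the test, at -0.14 ± 0.16 (adjusted p 0.476), and the files do not say which of its splice forms the probe detects.

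The 3 markers given for these cells, Ctla4, S100a4 and Ikzf2, were all far above naive levels, and none of them lay within the 0.5 log2 window. Ctla4, an inhibitory receptor that competes with CD28 for its ligands, was -2.58, -2.77 and -3.43 on the naive arrays, 5.19, 4.42 and 3.90 on the Th1 arrays and 4.17, 3.33 and 4.08 on the Th17 arrays. No cytokine-secreting array overlapped a naive one. Its change was 7.11 ± 0.32 (adjusted p 1.05e-06), and Th17 minus Th1 was -0.64 (95% interval -1.503 to 0.21, adjusted p 0.286). S100a4, a calcium-binding protein, changed by 7.32 ± 0.35, with Th17 cells 2.42 above Th1 cells (adjusted p 0.0054). Ikzf2, which encodes the transcription factor Helios, changed by 7.69 ± 0.23, with Th17 cells below Th1 cells by 2.30 on the log2 scale (adjusted p 0.00089). The markers were thus higher in both populations but outside the common programme by its own rule. In the plot of change against difference they lie at the right edge, outside the dashed lines.

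**Figure D1:**
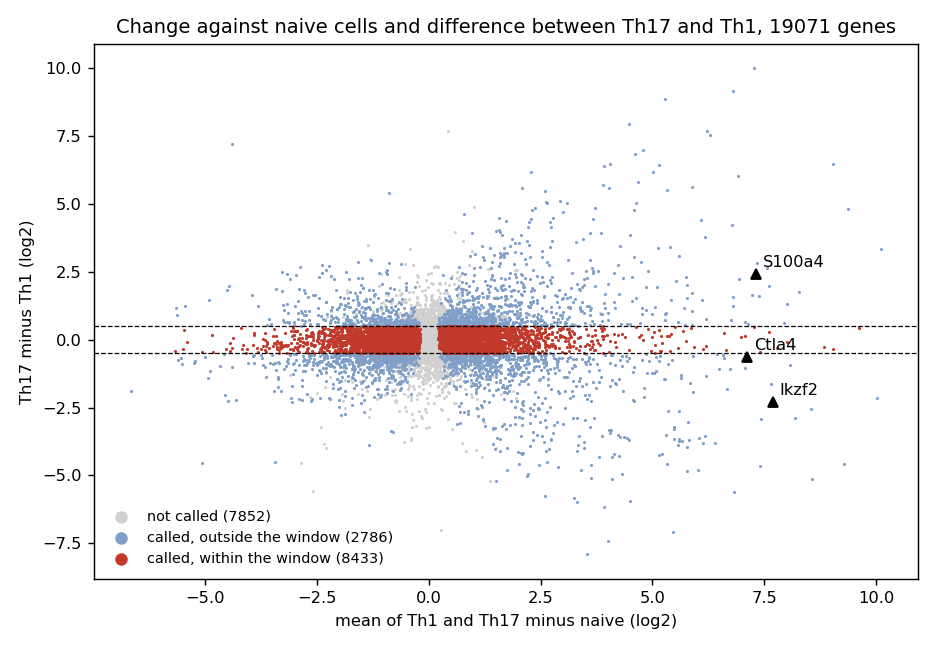
Each point is 1 of 19071 genes; the horizontal axis is the mean of Th1 and Th17 minus naive (log2), the vertical axis Th17 minus Th1 (log2), and dashed lines mark 0.5 log2 either way. The 8433 called genes within the window lie between the lines, 2786 called genes lie outside them, and Ctla4, S100a4 and Ikzf2 (triangles) are among the latter.

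Naive and cytokine-secreting cells differed at 11219 of the genes tested, or 58.8%. Of these 5002 (26.2% of genes tested) were higher and 6217 (32.6%) lower in the cytokine-secreting cells. Counts of list members below are to be read beside these shares. The common programme held 3299 higher genes (17.3%) and 5134 lower genes (26.9%), which together are 44.2% of genes tested, and 2786 called genes lay outside the window. Most common changes were small, with a median of 0.76 among the higher genes and -0.64 among the lower. In 2462 of the 8433 genes the change was under 0.5 log2, less than the window itself. The test was on the mean of both populations, so a member need not differ from naive cells in each. Per1, for example, was -0.16 against naive in Th1 cells and -0.66 in Th17 cells. Among all genes tested, 21.2% were called with a change of at least 2-fold, 11.8% higher and 9.41% lower. In the common programme at least 2-fold changes numbered 1092 higher and 1154 lower, at least 4-fold changes 291 and 243, and at least 32-fold changes 32 and 5. These counts use fitted changes, in which levels below background are taken as read, so some are bounded only at a smaller fold. All 6 cytokine-secreting arrays lay on one side of all 3 naive arrays in 7331 of the 8433 genes. Over all genes tested, the 6 arrays lay all above in 21.1% and all below in 28.4%.

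The direction of this split depended on the scale. When arrays were scaled to probes above background on every array, the median change of all genes moved from -0.085 to 0.032. The higher share then rose from 44.6% to 53.5% of called genes and from 39.1% to 49.7% of common genes, and 0 of the 8433 were called in the opposite direction. With slide as a block, fitted as a fixed term, 6878 genes were called (3464 higher, 3414 lower) and 4779 were common. Counts of called list members under this block, given below, come from these lower totals. In this fit the naive arrays are linked to the others only through Th1 replicate 1 on slide 1. Th17 replicate 3, alone on its slide, adds nothing to the comparison. Calls kept or lost under the block rest on that 1 link. Of the 8433 genes, 4476 were still called in the same direction, 4175 of them within the window, 99.7% kept their sign and 0 were called the other way. Within slide 1 alone, Th1 replicate 1 minus the naive mean had the sign of the common change in 8392 of 8433 genes, with a median ratio to it of 0.949. These 4 arrays were also part of the test that chose the genes, so this agreement was largely fixed by the choice. For Th17 cells slide and group cannot be told apart within any slide.

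The share of genes within the window fell with the size of the change against naive cells. Among called genes that changed by under 0.5 log2, 90.1% lay within it. The share was 84% at 0.5 to 1 log2, 63.9% at 1 to 2, 44.9% at 2 to 3, 34% at 3 to 5 and 23.4% at 5 and over. Restricted to genes above background on all 9 arrays the shares were 90.2%, 85%, 68%, 49.5%, 45.3% and 24.1%. The standard error of Th17 minus Th1 also grew, from a median of 0.115 in the smallest class to 0.304 in the largest. Its part in the falling share was not tested. The share of genes with a called difference between Th17 and Th1 went from 13.8% to 55.7% over the same classes, against 15.8% of all genes tested. In the class of 3 to 5 log2, 26.5% of higher genes and 49.3% of lower genes lay within the window. This split was not restricted to genes above background. In 71 common genes that fell, no cytokine-secreting array was above background, so both means there are unmeasured floor levels. The part of such genes in the split was not tested.

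**Figure D2:**
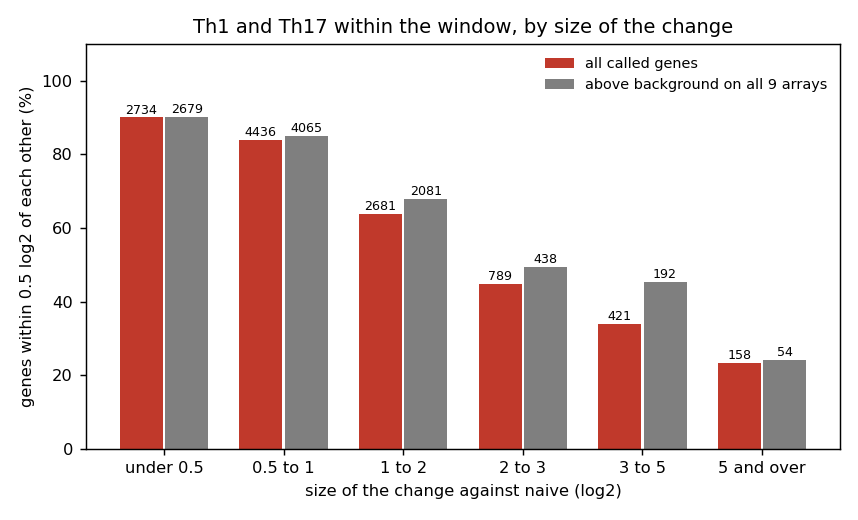
Bars give the percent of called genes whose Th1 and Th17 means lay within 0.5 log2, by size of the change against naive cells (log2), for all called genes and for those above background on all 9 arrays; the number of genes stands over each bar. The share falls from 90.1% under 0.5 log2 to 23.4% at 5 log2 and over.

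Lying within the window is a rule about 2 means and does not show that they are equal. The 95% interval of Th17 minus Th1 reached a median of 0.310 either side among common genes. It lay wholly within 0.5 log2 in 3982 of the 8433 genes and wholly within 1 log2 in 8050. In 312 common genes the difference itself was called. Per1, Acss1 and Fgd3 lay just inside the limit, with Th17 minus Th1 of -0.49992, -0.49985 and 0.49974, and Mettl15, Naa38 and Krcc1 just outside it, at 0.50041, 0.50042 and 0.50054.

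Esm1, which encodes the secreted proteoglycan endocan, rose most, by 9.63 ± 0.53. Its level was -3.71, -5.69 and -6.35 on the naive arrays, 4.85, 3.92 and 3.69 on the Th1 arrays and 4.76, 4.37 and 4.67 on the Th17 arrays. Only 1 of the 3 naive arrays was above background. Ccl1, a chemokine that acts on Ccr8, rose by 9.05 ± 0.42 from -1.93, -2.39 and -3.998 on the naive arrays to between 5.84 and 6.86 on the others. Il13, the type 2 cytokine, was -0.48, -1.21 and -3.04 on the naive arrays, 7.02, 6.74 and 5.28 on the Th1 arrays and 6.41, 6.33 and 5.43 on the Th17 arrays. It rose by 7.78 ± 0.60, and the naive arrays differed among themselves by more than the 6 others did.

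Of the 15 largest rises, 10 started from naive levels that no naive array measured above background, so they are given as lower bounds against the dimmest signal above background. This floor was averaged over the arrays of the dim group. Each bound holds for the brightest probe of its gene. Other probes of Farp1, Lrrk2 and Il1rl1 rose less, the lowest by 3.88, 3.93 and 5.01 on the log2 scale. Scg2, a granin of secretory vesicles, was at least 102-fold higher. Its naive arrays read -7.16, -7.05 and -7.69, and the 6 others 0.69 to 2.55. Il1rl1, the IL-33 receptor chain known as ST2, was at least 96.7-fold higher, with -5.49, -5.86 and -7.15 on the naive arrays, 1.73, 1.60 and 0.60 on the Th1 arrays and 1.80, 1.61 and 1.34 on the Th17 arrays. Il18rap, the accessory chain of the IL-18 receptor, was at least 50.8-fold higher, with 6 levels between -0.06 and 1.02 against naive levels of -5.78, -6.45 and -7.43. Genes were picked for sides that do not overlap, so the gap itself is a condition of the choice.

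Gcnt1, which builds the core 2 branch on O-glycans that selectins bind, was at least 62.7-fold higher. Farp1, a guanine nucleotide exchange factor, was at least 53.3-fold higher and the most even of the rises. It read -7.24, -7.19 and -7.81 on the naive arrays, 0.62, 0.58 and 0.68 on the Th1 arrays and 0.61, 0.50 and 0.52 on the Th17 arrays. The 6 cytokine-secreting arrays thus spanned 0.50 to 0.68, and Th17 minus Th1 was -0.085 (95% interval -0.45 to 0.28). Galm, the galactose mutarotase, was at least 45.1-fold higher, the scavenger receptor gene Olr1 at least 36.4-fold, the kinase gene Lrrk2 at least 21.9-fold, Plcl1, a phospholipase C-like protein, at least 20.6-fold, and Rab39b, a small GTPase, at least 13.3-fold. Prr5l, a partner of the mTORC2 complex, and Phactr2, a regulator of protein phosphatase 1, were above background on all arrays and rose by 6.12 ± 0.19 and 5.93 ± 0.16. The adjusted p of the 15 largest rises was at most 1.49e-05. With slide as a block, all 15 were still called, and 7 of them left the window. Their Th17 minus Th1 was then -1.18 for Scg2, -0.96 for Olr1, 0.76 for Esm1, 0.61 for Il1rl1, 0.60 for Il18rap, -0.58 for Plcl1 and -0.54 for Phactr2.

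**Figure D3:**
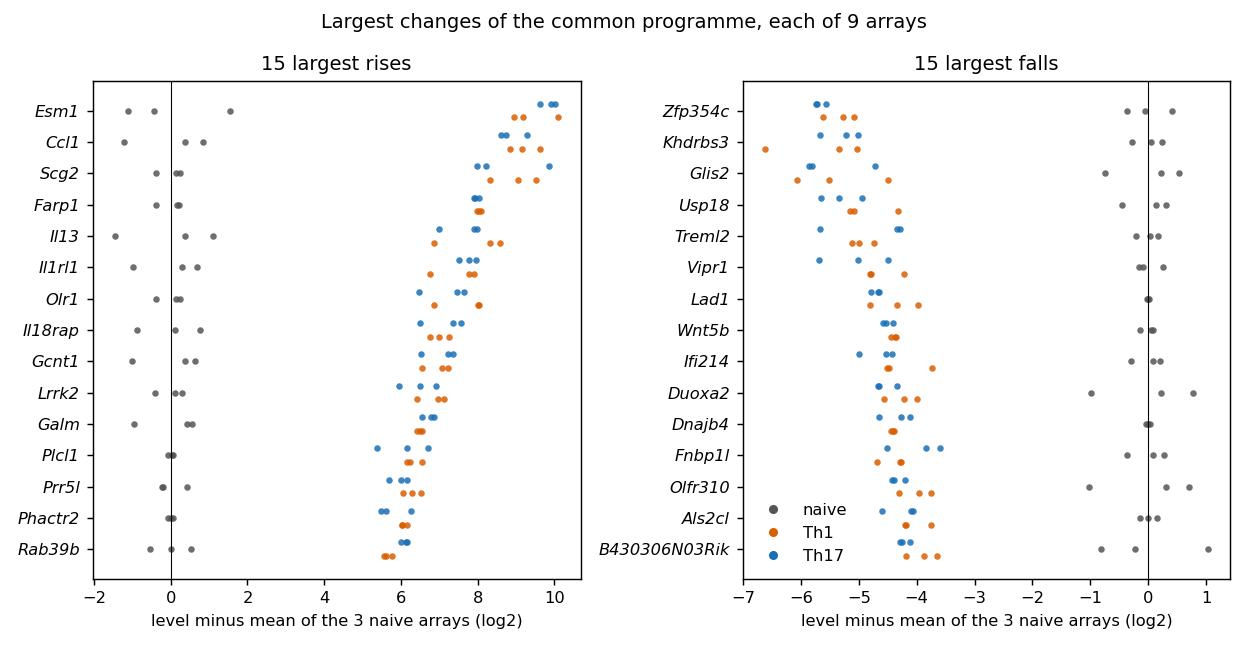
Each point is 1 array, plotted as its level minus the mean of the 3 naive arrays (log2), for the 15 largest rises (left) and falls (right) of the common programme; grey is naive, orange Th1 and blue Th17. Th1 and Th17 arrays overlap in 13 of the 15 rises and in all 15 falls, and in Galm and Rab39b every Th17 array lies above every Th1 array; genes were picked for a naive side that stands apart.

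The falls were smaller as fitted. By fitted change, 5 common genes fell at least 32-fold, against 32 that rose. Both counts include genes whose bound is lower. Among the falls these were Khdrbs3 (26.7-fold), Glis2 (13.5-fold) and Zfp354c (10.1-fold). Among the named rises they were Lrrk2 (21.9-fold), Plcl1 (20.6-fold) and Rab39b (13.3-fold). Usp18, the protease that removes ISG15 from proteins and restrains interferon signalling, fell by 5.08 ± 0.26. It was 1.41, 2.004 and 2.18 on the naive arrays, -2.46, -3.23 and -3.29 on the Th1 arrays and -3.08, -3.79 and -3.48 on the Th17 arrays. Vipr1, a receptor for vasoactive intestinal peptide, fell from 3.06, 3.46 and 3.12 on the naive arrays to between -2.48 and -0.997, a change of -4.83 ± 0.26. Its other probe changed by -2.66.

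Wnt5b, a Wnt ligand, was 0.94, 0.99 and 0.76 on the naive arrays, -3.46, -3.48 and -3.55 on the Th1 arrays and -3.69, -3.51 and -3.63 on the Th17 arrays. The 6 cytokine-secreting arrays spanned only -3.69 to -3.46, and the change was -4.45 ± 0.087. Dnajb4, an Hsp40 co-chaperone, fell by 4.38 ± 0.12, and Lad1, which encodes ladinin, fell by 4.54 ± 0.16. Ifi214, of the interferon-inducible p200 family, fell by 4.45 ± 0.22, and Fnbp1l, an actin regulator, fell by 4.20 ± 0.23, with 5 of 6 cytokine-secreting arrays above background. Als2cl, listed with the naive genes below, fell by 4.15 ± 0.16.

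Of the 15 largest falls, 7 ended below background on all 6 arrays. Khdrbs3, an RNA-binding protein, was at least 26.7-fold lower, with naive levels of -0.47, -0.28 and -0.80. The zinc finger genes Glis2 and Zfp354c were at least 13.5-fold and 10.1-fold lower. Treml2, a receptor of the TREM family, was at least 8.79-fold lower, and Duoxa2, a maturation factor of dual oxidase 2, at least 5.05-fold. The olfactory receptor gene Olfr310 and B430306N03Rik were at least 3.81-fold and 3.73-fold lower. Of the 15 falls, 3 left the window once slide was a block, Khdrbs3 (0.64), Lad1 (-0.57) and Fnbp1l (0.56). Across the whole programme, 106 genes were above background on no naive array and on all 6 others, and 71 showed the opposite pattern.

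Among the 26 naive and quiescence genes, all measured, 19 fell, 3 rose and 4 did not pass the test, with a median change of -1.59 against -0.085 for all genes tested. Within the window lay 6 of those that fell and 1 that rose. Actn1, the crosslinker alpha-actinin 1, was 1.37, 1.60 and 1.35 on the naive arrays, -2.11, -2.24 and -1.94 on the Th1 arrays and -2.22, -2.25 and -2.50 on the Th17 arrays, a change of -3.65 ± 0.11 (adjusted p 1.92e-07). Lef1, a transcription factor of the TCF family that marks naive T cells, fell by 2.75 ± 0.13. Its naive arrays read 3.46, 3.49 and 3.15 and the 6 others 0.33 to 1.07. Th17 minus Th1 was -0.47 for Lef1, near the limit, and -0.62 with slide as a block. Tob1, an antiproliferative factor of quiescent T cells, fell by 2.39 ± 0.19. Ccr7, the chemokine receptor of lymph node entry, fell by 2.63 on the log2 scale and lay outside the window. Dapl1 differed most between the populations, with 0.18, 0.10 and 0.05 on the naive arrays, -2.73, -2.74 and -2.63 on the Th1 arrays and -7.77, -7.71 and -6.27 on the Th17 arrays. It was above background on every Th1 array and on no Th17 array, and both lay below naive cells. Il7r, the IL-7 receptor chain, went the other way, at 2.42.

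Transcription factors of effector and memory cells were higher in 17 of 28 (60.7%, all genes 26.2%) and lower in 5 (17.9%, all genes 32.6%). The median was 1.23. Within the window lay 7 that rose and 3 that fell. Zeb2, a repressor associated with terminal differentiation, was -1.26, -0.91 and -1.04 on the naive arrays, 2.11, 1.999 and 2.06 on the Th1 arrays and 2.44, 2.13 and 2.33 on the Th17 arrays. It rose by 3.25 ± 0.11 (adjusted p 2.52e-07). Id2, an inhibitor of E proteins, rose by 2.03 ± 0.14, from 3.11, 3.18 and 3.13 on the naive arrays to 4.88 to 5.57, with Th17 minus Th1 at 0.51 with slide as a block. Bhlhe40, a regulator of cytokine production, rose by 1.66 ± 0.082, and the 6 arrays spanned 4.49 to 4.70. Bcl6, the repressor that directs follicular helper cells, rose by 1.47 ± 0.11. Prdm1, which encodes Blimp-1 and is antagonistic to Bcl6, also rose, by 1.95, and lay within the window.

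Inhibitory receptors and ectoenzymes were higher in 13 of 17 and lower in 2, with a median of 2.62. With normexp background correction, its faulty spot backgrounds replaced, the counts were the same and the median was 1.35. Within the window lay 5 that rose and 2 that fell. Nt5e, the ectoenzyme CD73 that makes adenosine, was -2.56, -2.23 and -2.66 on the naive arrays, 1.97, 2.62 and 2.33 on the Th1 arrays and 2.14, 2.77 and 1.94 on the Th17 arrays. The naive arrays were all at least 4 log2 below the rest, the change was 4.78 ± 0.21, and Th17 minus Th1 was -0.024 (95% interval -0.59 to 0.54). Pdcd1, which encodes PD-1, was 0.16, 1.10 and 0.78 on the naive arrays, 4.90, 4.98 and 5.08 on the Th1 arrays and 4.64, 4.61 and 4.93 on the Th17 arrays, a change of 4.18 ± 0.19. Tigit rose by 5.20 ± 0.36 and Cd200 by 3.90 ± 0.23. Cd274, which encodes the PD-1 ligand PD-L1, fell by 1.06 on the log2 scale and lay within the window. Lag3, a receptor for MHC class II, rose in both, with Th17 below Th1 by 2.52 on the log2 scale (adjusted p 0.000115).

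Regulatory T cells express several of these receptors and were not excluded by the gates as labelled. Of 11 measured regulatory T cell markers, 8 were higher and 2 lower, with a median of 3.37. Foxp3, their defining factor, was between -2.55 and -2.49 on the naive arrays, 1.03 to 1.92 on the Th1 arrays and 0.47 to 0.81 on the Th17 arrays. The log2 of the summed linear level of the list was 6.44 to 6.56 in naive, 7.15 to 7.73 in Th1 and 7.32 to 7.60 in Th17 cells. On the naive arrays this sum lay mainly in Il2ra (5.55 to 5.74) and Tnfrsf18 (5.14 to 5.32). Ctla4 and Ikzf2 are themselves members of the list, so its count, median and sum include them. Within the window were Nrp1, a semaphorin co-receptor, at least 8.11-fold higher but outside the window with slide as a block (Th17 minus Th1 0.61), and Lrrc32, which displays latent TGF-beta, at 2.12 ± 0.25. The 2 lower markers were Tnfrsf18, the receptor GITR, at -0.68 ± 0.12, and Gpr83, at -1.97 ± 0.48. Tnfrsf18 read 5.14, 5.32 and 5.30 on the naive arrays and 5.04, 5.36 and 5.03 on the Th1 arrays, which overlapped. Only the Th17 arrays, at 3.90, 4.23 and 3.85, lay lower. Gpr83 differed from naive by -0.59 in Th1 cells (limma, adjusted p 0.406) and by -3.36 in Th17 cells. The call of Gpr83 was lost with slide as a block (adjusted p 0.0799). The part of regulatory T cells in the changes of Ctla4, Ikzf2 and the inhibitory receptors was not tested. In bulk samples, more cells of a type and more RNA per cell cannot be told apart.

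Costimulatory and activation receptors were higher in 10 of 18 measured (55.6%, all genes 26.2%) and lower in 3 (16.7%, all genes 32.6%). The median was 0.37. Without naive replicate 3 only 6 were higher, and a slide block moved the middle of the list to 0.57. Within the window lay 7 that rose and 1 that fell. Icos, a CD28 relative, was 3.18, 2.97 and 2.42 on the naive arrays, 7.35, 6.97 and 6.70 on the Th1 arrays and 7.65, 6.80 and 7.10 on the Th17 arrays. It rose by 4.24 ± 0.24 (adjusted p 3.15e-06). Tnfrsf4, which encodes OX40, rose by 2.59 ± 0.10, from 5.87, 5.86 and 5.76 on the naive arrays. Cd44, the hyaluronan receptor used to mark antigen-experienced T cells, rose by 1.76 ± 0.17, from 3.98, 3.94 and 4.04 to between 5.45 and 6.13. Cd69, an early activation antigen, went the other way. It was 7.91, 8.14 and 8.12 on the naive arrays, 5.52, 5.80 and 5.50 on the Th1 arrays and 5.98, 5.97 and 6.07 on the Th17 arrays, so the stimulated naive cells were highest, and the change was -2.25 ± 0.10 (adjusted p 9.87e-07). Cd27, a TNF receptor family member, fell in both, with Th17 below Th1 by 1.99 on the log2 scale.

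Homing receptors and integrins were higher in 16 of 22 measured and lower in 3, with a median of 1.98. Within the window lay 8 that rose and 2 that fell. Itgav, the integrin alpha V chain, was -0.65, -0.89 and -0.49 on the naive arrays, 2.65, 3.11 and 3.14 on the Th1 arrays and 2.60, 3.06 and 3.11 on the Th17 arrays, a change of 3.62 ± 0.17. Its Th1 and Th17 arrays covered the same range, with Th17 minus Th1 of -0.04 (95% interval -0.48 to 0.40). Ccr3, the eotaxin receptor, was at least 7.01-fold higher and Gpr15, a receptor for homing to the large intestine, at least 3.26-fold higher. Selplg, which encodes the selectin ligand PSGL-1, fell by 2.06 ± 0.15, from 4.20, 4.61 and 4.06 to between 1.92 and 2.47, while Gcnt1, the branching enzyme above, rose. Ccr6, the receptor for Ccl20, rose most in the list, by 9.36 ± 0.44, but Th17 lay 4.82 above Th1.

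Among S100, annexin, galectin and cytoskeletal genes, 13 of 23 were higher and 7 lower, with a median of 1.21. Only 5 of the 23 lay within the window, 21.7%, against 76.3% of all genes tested. The 2 that rose within it were Ahnak, a giant scaffold protein, and S100a10, its binding partner in the annexin A2 complex. Ahnak was 1.73, 1.497 and 1.36 on the naive arrays, 4.33, 3.47 and 3.28 on the Th1 arrays and 4.44, 3.92 and 3.36 on the Th17 arrays, a change of 2.27 ± 0.29. Its 4 probes disagreed, with changes of 2.27, 2.12, 1.33 and -0.40, of which the last did not pass the test (adjusted p 0.234). S100a10 rose by 1.21 ± 0.16. Both genes left the window under the slide block, at a Th17 minus Th1 of 0.80 for Ahnak and 0.56 for S100a10, and 3 of the list were lower in place of 7. Ezr, the membrane linker ezrin, fell by 1.90 ± 0.085. Tmsb10, an actin-sequestering thymosin, was -0.69 ± 0.20 (adjusted p 0.0179). Its naive arrays were 5.99, 6.22 and 6.13 and the 6 others 5.04 to 5.86. The change of Tmsb10 was 0.01 with slide as a block, and its adjusted p was 0.0665 without naive replicate 2 and 0.0553 without naive replicate 3. Lgals3, which encodes galectin-3, was 5.61 higher in Th17 than in Th1 cells.

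**Figure D4:**
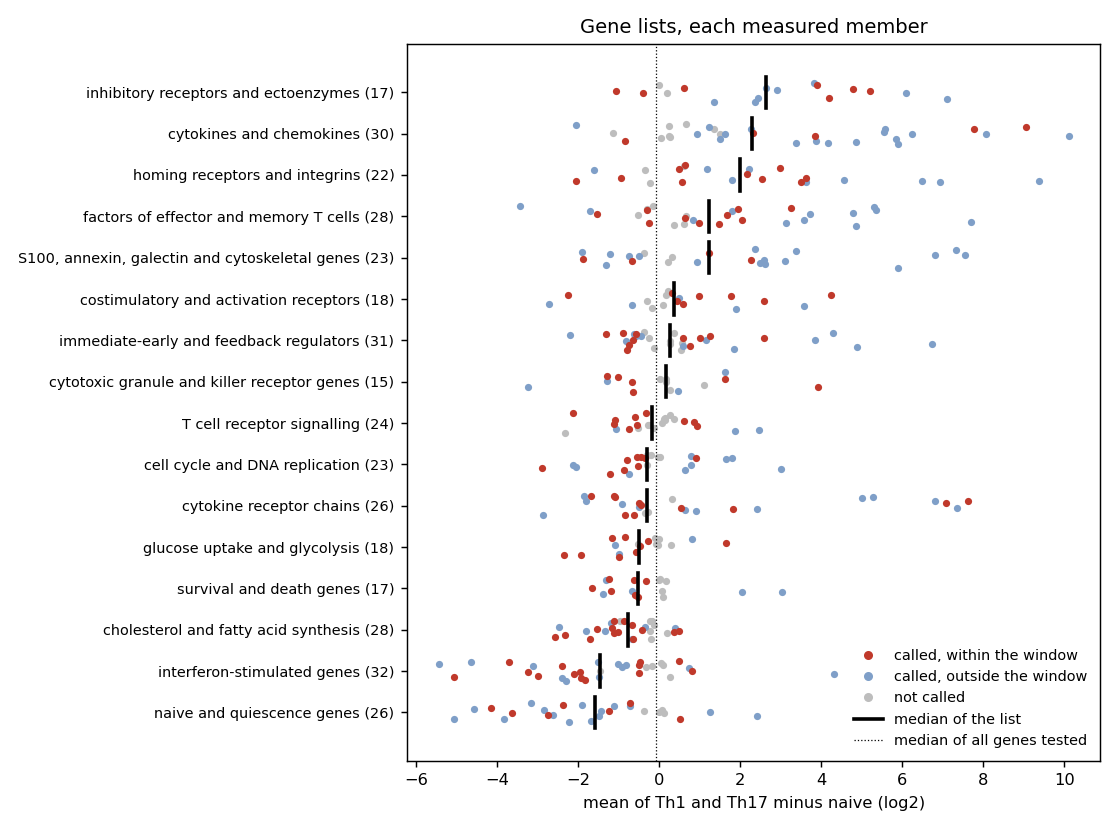
Each point is a measured gene of the list named at the left (number measured in brackets), plotted by its change against naive cells (log2); red is called and within the window, blue called and outside it, grey not called, black bars are list medians and the dotted line is the median of all genes tested. Medians run from 2.62 for inhibitory receptors to -1.59 for naive and quiescence genes.

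Cytokine and chemokine genes were higher in 20 of 30 measured and lower in 2, with a median of 2.28. Only 8 of the 30 lay within the window, 26.7%, against 76.3% of all genes tested, and of these 4 rose and 1 fell. The 4 were Ccl1 and Il13, described above, Il3, a growth factor for myeloid and mast cells, and Csf1, the macrophage growth factor. Il3 was 2.10, 3.42 and 3.88 on the naive arrays, 6.86, 7.28 and 6.18 on the Th1 arrays and 6.92, 7.43 and 7.23 on the Th17 arrays, a change of 3.85 ± 0.39. Csf1 rose by 2.30 ± 0.27, and its Th17 minus Th1 was -0.019 (95% interval -0.74 to 0.70), or -0.53 with slide as a block, outside the window. Il5, the eosinophil growth factor, had the largest change of the list, 10.11, and lay outside the window, as did Il4 at 5.84 and Il10 at 8.07. Il22 differed most between the populations, with Th17 7.68 above Th1. Il2 rose by 1.22, and Tnf did not pass the test, at 0.23.

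Cytokine receptor chains were mixed, with 11 of 26 higher (42.3%, all genes 26.2%) and 12 lower (46.2%, all genes 32.6%). Their median was -0.32, or -0.14 under the slide block. Within the window lay 4 that rose and 7 that fell. Besides Il1rl1 and Il18rap, the shared IL-2 and IL-15 receptor chain Il2rb rose, by 1.82 ± 0.11, from 3.44, 3.74 and 3.35 to between 5.13 and 5.53, and Il2rg, the common gamma chain, by 0.54. Il4ra, the IL-4 receptor chain, fell by 1.70 ± 0.11. It was -0.80, -0.51 and -0.79 on the naive arrays, -2.39, -2.42 and -2.30 on the Th1 arrays and -2.29, -2.67 and -2.35 on the Th17 arrays, and the sides did not overlap. Its other probe changed by only -0.42. Il17ra and Il27ra fell by 1.13 and 1.09 on the log2 scale. Il23r was not above background on any naive array and lay 9.16 higher in Th17 than in Th1 cells.

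Genes of T cell receptor signalling were higher in 5 of 24 and lower in 8, and 11 did not pass the test. The shares called, 20.8% higher and 33.3% lower, stand beside 26.2% and 32.6% of all genes tested. The median of -0.19 became 0.007 after quantile normalization, with 7 higher and 7 lower, so the list as a whole had no settled direction. Under the slide block it had 4 lower members and a median of -0.04. Dgkz, a diacylglycerol kinase, was 2.80, 2.77 and 2.70 on the naive arrays, 2.13, 2.10 and 1.98 on the Th1 arrays and 1.93, 1.92 and 1.92 on the Th17 arrays, a change of -0.76 ± 0.074 within the window. The 3 naive arrays were all above the rest. Prkcq, the protein kinase C isoform of the T cell synapse, fell by 1.12 ± 0.17. Prkcq lost its call with slide as a block (adjusted p 0.0759). Themis, a T cell signalling adaptor, rose, with Th17 below Th1 by 1.04 on the log2 scale.

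Immediate-early and feedback regulators were higher in 12 of 31 measured (38.7%, all genes 26.2%) and lower in 11 (35.5%, all genes 32.6%). The median was 0.27. The slide block gave 11 higher and 6 lower and a median of 0.53, and without naive replicate 3 the median was 0.15. Rgs1, which dampens chemokine receptor signalling, was 2.75, 2.19 and 2.64 on the naive arrays, 5.52, 4.91 and 4.76 on the Th1 arrays and 5.45, 4.99 and 5.08 on the Th17 arrays, a change of 2.59 ± 0.21. Spred1, an inhibitor of the Ras pathway, rose by 1.24 ± 0.11. Tnfaip3, the NF-kB inhibitor A20, was 6.87, 6.90 and 6.98 on the naive arrays, 5.95, 5.74 and 5.46 on the Th1 arrays and 5.47, 5.36 and 5.55 on the Th17 arrays, so the naive arrays were highest, and the change was -1.32 ± 0.12. Pim1, a cytokine-induced kinase, fell by 0.75 ± 0.10. Nfkbia, which encodes the NF-kB inhibitor I-kappa-B alpha, fell by 0.91 on the log2 scale. Dusp14, a phosphatase, rose in both, with Th17 below Th1 by 1.37 on the log2 scale.

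Interferon-stimulated genes were lower in 22 of 32 measured and higher in 4, with a median of -1.48, and 12 of the lower ones lay within the window. Interferon-stimulated genes are induced by the factor ISGF3, of which Stat2 and Irf9 are parts and which binds the interferon-stimulated response element, a repeat of GAAA separated by a pair of bases. Beside Usp18, Ifit1, an RNA-binding antiviral protein, was -0.08, -0.999 and 0.27 on the naive arrays, -3.57, -3.64 and -4.39 on the Th1 arrays and -3.99, -4.06 and -4.25 on the Th17 arrays, a change of -3.71 ± 0.29. Isg15, the ubiquitin-like modifier that Usp18 removes, was 4.15, 4.26 and 4.52 on the naive arrays, 1.89, 1.36 and 1.07 on the Th1 arrays and 1.37, 0.98 and 1.17 on the Th17 arrays, a change of -3.004 ± 0.18 (adjusted p 4.65e-06). Stat2 fell by 1.97 ± 0.15, and the 6 arrays spanned -0.69 to -0.12 against 1.42, 1.93 and 1.58. Irf7, the factor that amplifies type I interferon, fell by 2.40 on the log2 scale and lay within the window. Ifih1, the RNA sensor MDA5, rose by 4.32 and was the largest exception.

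Ifng, whose product induces many of these genes, was high in Th1 cells. Gbp2, a guanylate-binding protein, fell in both, with 4.15, 4.57 and 4.27 on the naive arrays, 0.62, 1.20 and 0.43 on the Th1 arrays and 3.30, 3.65 and 2.98 on the Th17 arrays. Th17 cells lay 2.56 above Th1 cells (adjusted p 0.000281), so the cells that secreted interferon gamma had the lower Gbp2 level. Under the slide block, 18 members of the list were lower and 4 higher.

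**Figure D5:**
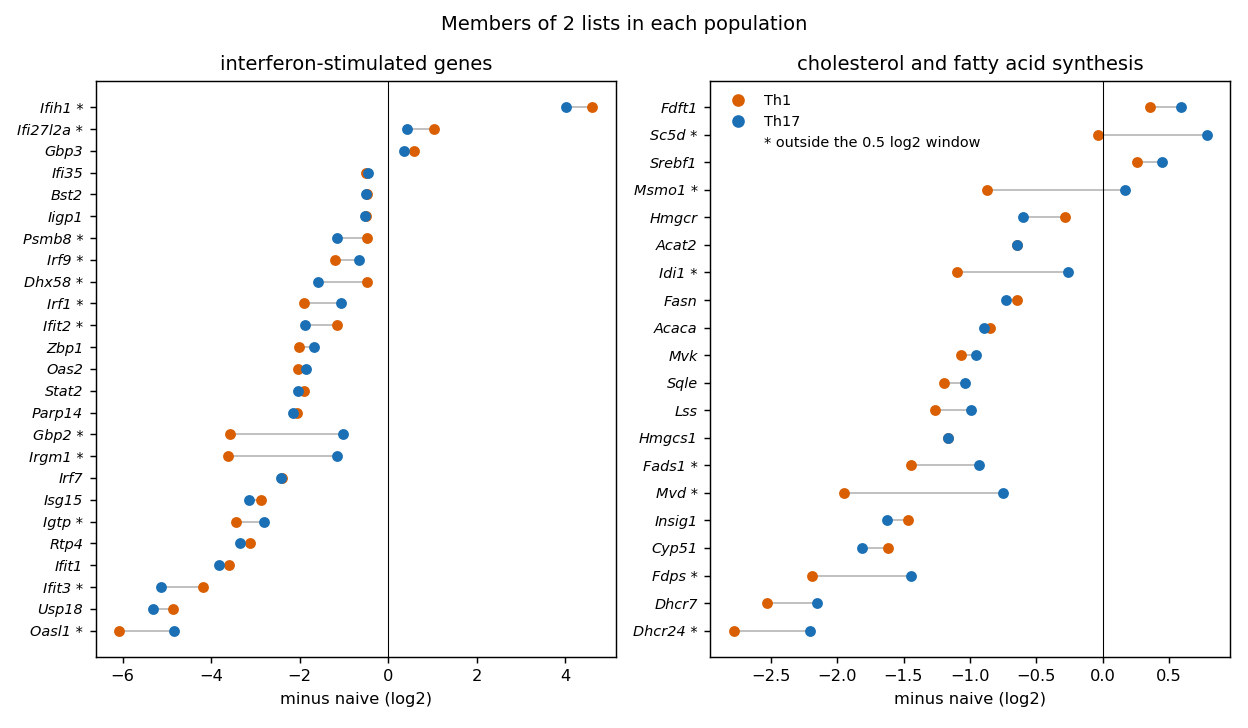
For called members of the interferon (left) and cholesterol and fatty acid (right) lists, 1 of each list not drawn, points give Th1 minus naive (orange) and Th17 minus naive (blue) in log2, which share the naive arrays; an asterisk marks genes outside the 0.5 log2 window. The interferon list holds 22 lower and 4 higher genes, the sterol list 18 and 3.

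The promoters of 4 common genes that fell are shown because they hold the response element letters. The sequences are from RefSeq on build GRCm38.p6 and are printed on the strand of the gene, with each match to the element (GAAA, any 2 bases, GAAA, searched on both strands) in capitals (overlapping matches run together). They are chr4:156200855-156200916 for Isg15 (minus strand), chr19:34640765-34640833 for Ifit1 (plus strand), chr10:128270256-128270305 for Stat2 (plus strand) and chr8:71537567-71537622 for Bst2, which encodes tetherin (minus strand), all upstream of the transcript start.
Isg15: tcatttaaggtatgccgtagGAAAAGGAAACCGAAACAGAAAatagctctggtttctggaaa
Ifit1: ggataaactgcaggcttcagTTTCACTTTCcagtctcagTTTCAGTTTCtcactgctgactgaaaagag
Stat2: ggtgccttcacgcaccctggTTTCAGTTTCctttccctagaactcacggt
Bst2: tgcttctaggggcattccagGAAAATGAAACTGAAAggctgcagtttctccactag

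Isg15 held 3 matches, Ifit1 and Bst2 held 2 each, and Stat2 held 1. In Ifit1 and Stat2 the letters lay on the opposite strand. The start of the Isg15 stretch lay 98 bases before the transcript start and its end 37 bases before it. Within 250 bases before to 50 bases after the start, the letters were found in 8 of the 15 lower interferon genes that have an entry in the promoter table, 53.3%, and in 5 of the 8 other measured members, 62.5%, against 3.99% of the 27025 genes in the table. The letters thus did not set the lower genes apart from the rest of the list. Bst2 itself changed by only -0.49, as against -3.004 for Isg15.

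Genes of cholesterol and fatty acid synthesis were lower in 18 of 28 measured and higher in 3, with a median of -0.78, and 12 of the lower ones lay within the window. SREBP2 and its target genes raise sterol synthesis and uptake when cell sterol is low. Insig1, the sterol-sensing anchor that holds SREBP in the endoplasmic reticulum, was 1.06, 1.41 and 1.05 on the naive arrays, -0.49, -0.19 and -0.20 on the Th1 arrays and -0.63, -0.22 and -0.52 on the Th17 arrays. The naive arrays were all above the rest, and it fell by 1.55 ± 0.14. Cyp51, the lanosterol demethylase, fell by 1.72 ± 0.12 and Sqle, the squalene epoxidase, fell by 1.12 ± 0.094. Hmgcs1, the HMG-CoA synthase, fell by 1.17 and Dhcr7, a reductase of the last steps of cholesterol synthesis, by 2.34 on the log2 scale. Srebf2, which encodes SREBP2, did not pass the test, at -0.18. Mvd, the mevalonate diphosphate decarboxylase, fell in both, with Th17 1.19 above Th1.

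The sterol response element TCACNCCAC was found in 1 of the 12 lower members with a promoter entry, Hmgcs1, against 1.44% of genes in the table. Its stretch is chr13:119690194-119690242, plus strand, build GRCm38.p6, shown because it is the one match, in capitals, and ends 109 bases before the start.
Hmgcs1: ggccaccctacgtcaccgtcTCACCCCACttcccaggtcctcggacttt

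A further pair of motifs was searched over the large common changes. TGANTCA, the AP-1 site, was in 9 of 69 genes with a promoter entry that rose at least 8-fold, 13%, and in 7 of 45 that fell at least 8-fold, 15.6%, against 6.67% of tested genes. An NF-kB site (GGGA, any 4 bases, CC) was in 30.4% and 42.2% of the same sets, against 29% of tested genes. The letters were thus not more frequent among rises than among falls. Both strands were searched.

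Genes of glucose uptake and glycolysis were lower in 10 of 18 and higher in 2, with a median of -0.51. Within the window lay 14 of the 18, or 77.8%, near the 76.3% of all genes tested. Slc2a3, the glucose transporter GLUT3, was 2.40, 3.02 and 2.88 on the naive arrays, 0.25, 0.64 and 0.45 on the Th1 arrays and 0.43, 0.39 and 0.27 on the Th17 arrays, a change of -2.36 ± 0.15. Hk1, a hexokinase, fell by 1.94 ± 0.19, while Hk2, the other hexokinase of the list, rose by 1.63. Pfkl, the liver-type phosphofructokinase, fell by 1.17 ± 0.13 and Pgam1, the phosphoglycerate mutase, fell by 0.997 ± 0.13. With slide as a block, Pgam1 changed by -0.63. Pfkp, the platelet-type phosphofructokinase, rose, with Th17 below Th1 by 0.56 on the log2 scale. Under quantile normalization 8 were lower and 4 higher. The slide block gave 6 lower and 3 higher and a median of -0.28, beside 3414 lower and 3464 higher among all 19071 genes.

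Cell cycle and DNA replication genes were lower in 11 of 23 measured (47.8%, all genes 32.6%) and higher in 7 (30.4%, all genes 26.2%). The median was -0.31. Under the slide block 4 were higher and 9 lower, beside 3464 and 3414 of all 19071 genes tested. Of the 7 higher genes, Cdk1 and Ccna2 have no settled change, as given below. Birc5 differed from naive by 1.29 in Th17 cells but by -0.013 in Th1 cells, and its sides overlapped. That leaves Ccnb1, Cdkn2c, Mki67 and Top2a. Those lower within the window included E2f1, a driver of S-phase genes, which was 0.45, 0.66 and 0.50 on the naive arrays, -2.74, -2.30 and -2.15 on the Th1 arrays and -2.39, -2.29 and -2.35 on the Th17 arrays, a change of -2.91 ± 0.13. Mcm4, of the replicative helicase, fell by 1.23 ± 0.10, Ccne1, which encodes cyclin E1, fell by 0.88 ± 0.12, and Pcna, the sliding clamp, fell by 0.55 ± 0.10. Pcna lost its call with slide as a block (adjusted p 0.0999). Mki67, the proliferation antigen Ki-67, was 3.002 higher and Top2a, a topoisomerase, 0.90 higher, of which only Top2a lay within the window. Ccna2, which encodes cyclin A2, was above background on the 3 Th17 arrays only, so it has no measured change common to both. The 2 probes of Cdk1 were called in opposite directions, at -0.68 and 0.79, so no direction is given for it.

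Survival and death genes were lower in 10 of 17 measured (58.8%, all genes 32.6%) and higher in 2 (11.8%, all genes 26.2%). The median was -0.53, and 7 of the lower ones and 0 of the higher ones lay within the window. Bcl2l11, which encodes the death activator Bim, was 1.14, 1.37 and 1.38 on the naive arrays, -0.57, -0.52 and -0.46 on the Th1 arrays and -0.29, -0.24 and -0.17 on the Th17 arrays, a change of -1.67 ± 0.086. Casp8, an initiator caspase, fell by 1.25 ± 0.13, Bax, a pore-forming death effector, fell by 1.19 ± 0.15, and Cflar, the caspase-8 inhibitor c-FLIP, fell by 0.59 ± 0.077. Bcl2, the survival factor, did not pass the test, at -0.02. Tnfsf10, the death ligand TRAIL, rose, with Th17 below Th1 by 1.39 on the log2 scale.

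Cytotoxic granule and killer receptor genes were higher in 4 of 15 measured and lower in 6, with a median of 0.16. These shares, 26.7% and 40%, stand beside 26.2% and 32.6% of all genes tested, and the median was 0.007 without Th1 replicate 1. Serpinb6a, an inhibitor of granule and lysosomal proteases, was -2.30, -2.37 and -2.14 on the naive arrays, 1.97, 1.54 and 1.22 on the Th1 arrays and 2.06, 1.86 and 1.20 on the Th17 arrays, a change of 3.91 ± 0.22. The slide block put its Th17 minus Th1 at 0.58, outside the window. Prf1, which encodes perforin, was 1.17, 1.48 and 1.47 on the naive arrays, 0.48, 0.33 and 0.24 on the Th1 arrays and 0.36, 0.48 and 0.22 on the Th17 arrays, so naive arrays were highest, and the change was -1.02 ± 0.11. Lamp1, a lysosomal membrane protein, fell by 0.68 ± 0.083, and Serpinb9, an inhibitor of granzyme B, fell by 1.29 ± 0.24. Serpinb9 lost its call with slide as a block, at -0.78 (adjusted p 0.0768). Gzmb, which encodes granzyme B, did not pass the test, at 0.01. Klrk1, which encodes the receptor NKG2D, was above background on the Th17 arrays only.

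Markers of other cell types differed in how far they were detected. Ms4a1, Pax5 and Cd79b of B cells, Ncr1 and Klrb1c of NK cells and Cd8a were not above background on any array. Of the B cell list 4 of 11 were measured and 1 rose, and of the myeloid and dendritic cell list 8 of 14 were measured, 4 higher and 1 lower. The 4 were Cd14, Itgam, Mpeg1 and Xcr1. Cd14, a co-receptor for lipopolysaccharide, was -3.96, -3.91 and -4.45 on the naive arrays, -3.06, -3.65 and -3.85 on the Th1 arrays and -0.30, -1.14 and -1.71 on the Th17 arrays. Itgam, the integrin chain CD11b, rose by 0.93 ± 0.15 and Mpeg1, which encodes perforin-2, by 1.41 ± 0.22. Xcr1, a chemokine receptor of dendritic cells, was above background on the 3 Th1 arrays only. The log2 of the summed linear level of the B cell list was -0.83 to -0.45 in naive, 0.09 to 0.47 in Th1 and -0.11 to 0.19 in Th17 cells. That of the myeloid list was 7.48 to 7.54, 7.66 to 7.87 and 7.68 to 7.88, and lay mainly in Siglech, at 7.33 to 7.75 on all arrays. Cd8b1 was the one measured CD8 marker. It read -0.83, -0.83 and -0.56 on the naive arrays and -4.39 to -3.86 on the others. Of the NK, NKT and gamma-delta T cell list 3 of 8 were measured, with 1 higher and 2 lower, and its summed level was 1.15 to 1.46 in naive, 0.53 to 0.72 in Th1 and 0.40 to 0.66 in Th17 cells. The red cell gene Hba-a1 varied within groups, from -4.86 to 0.35 on the Th1 arrays, and the summed level of that list was -4.34 to -3.08 in naive, -3.79 to 0.39 in Th1 and -0.15 to 1.49 in Th17 cells. The part of these cells in the changes above was not tested.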

How the data were processed

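RNA of 9 sorted samples, 0.5 µg each, was hybridised to 1-colour Agilent arrays of design 026655. In the deposited files each spot has a background-subtracted intensity on a linear scale, and raw median intensities of itself and its surround. Feature Extraction was version 10.7.3.1 per the file headers and 10.5 per the submitters' processing notes. The authors also deposited log2 values, whose differences between arrays match those of the files at r = 1, with the baseline per probe not stated; its column medians were 0.24, 0.29 and -0.096 (naive), 0.17, 0.11 and -0.00078 (Th1) and -0.072, -0.047 and 0.047 (Th17).

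Control and outlier spots were left out, the 75th percentile of an array was subtracted from its log2 intensities, and probes well above background on at least 3 arrays were kept (23215 of 39429). RefSeq gave 27234 probes a symbol. The brightest probe stood for a gene, and in 67 common genes probes were called in opposite directions. A limma 3.58.1 model of all 3 groups was used (R 4.3.3, data.table at 1.17.8), two-sided and checked on simulated data. Where no array of the dim side was above background, folds are lower bounds. The precision is limited by the number of arrays.

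Members and the 24 gene lists were chosen with earlier results of these data known. Named by rule were the 15 largest rises and falls with a symbol whose sides did not overlap and which were above background on the whole higher side, up to 4 common members of each list by smallest p, the member of each list with the largest Th17 minus Th1, and all sort genes and given markers. Some genes that the rule picked are not reported here. Further list members and the genes beside the window limit were chosen after their values were seen. Alternatives were normexp, quantile and other scalings, probe filters and averages, slide or replicate blocks, other windows, each array left out and the values the authors deposited. The files hold no mean spot signal, so normexp used the median. Coordinates are given for RefSeq promoters only, since the headers name an older build.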

Additional observations from a re-analysis of the deposited data

Results flagged for a closer look

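Between Th17 and Th1 cells, 23 of the genes named above differed at an adjusted p under 0.05 (limma), given here as Th17 minus Th1 in log2. Higher in Th17 cells were Il17a (10.00), Il23r (9.16), Il22 (7.68), Lgals3 (5.61), Ccr6 (4.82), Klrk1 (3.13), Gbp2 (2.56), S100a4 (2.42), Ccna2 (1.82) and Mvd (1.19). Higher in Th1 cells were Ifng (-7.40), Dapl1 (-4.55), Gpr83 (-2.77), Lag3 (-2.52), Ikzf2 (-2.30), Cd27 (-1.99), Tnfsf10 (-1.39), Dusp14 (-1.37), Themis (-1.04), Cd3e (-0.57), Pfkp (-0.56), Cd4 (-0.51) and Ezr (-0.37). In 4 of these genes one population had no array above background, so the value rests on a signal with only a bound. The difference was then at least 3.05-fold for Ccna2 and 1.77-fold for Klrk1, lower in Th1 cells, and at least 6.64-fold for Dapl1 and 2.56-fold for Gpr83, lower in Th17 cells. Ezr lay within the 0.5 log2 window all the same. The rule for named genes picked from each list the member with the largest such difference, so most of these were chosen for it. The calls of Cd3e, Cd4, Ezr, Pfkp, Dusp14, Gpr83 and Tnfsf10 were each lost in at least one alternative, with slide as a block (adjusted p 0.132, 0.191, 0.0968, 0.0679, 0.06 and 0.0831 for Cd3e, Cd4, Ezr, Pfkp, Gpr83 and Tnfsf10) or, for Dusp14, without Th1 replicate 2 (0.0577).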

How the results depend on the processing

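The counts of called and common genes stayed within 1.5 times their values under quantile normalization (10903 called, 8174 common), both probe filters, mean probes, the deposited table, and each array left out (called 9475 to 11653, common 7008 to 8884). Normexp gave 1683 called (921 higher, 762 lower) and 972 common (472 and 500). Its fit failed on Th1 replicate 2, where 6 spots had a faulty local background and the median corrected signal was 2469. With those backgrounds replaced, an alternative chosen after seeing the data, 10125 were called and 8473 were common. Slide as a block gave 6878 called (3414 lower) and 4779 common (2137 higher, 2642 lower). A minimum change of 2-fold left 4049 called (2254 and 1795) and 2246 common (1092 and 1154), and a window of 0.25 left 5621 common (1926 higher). The replicate block gave 11171 called and 8355 common. Residuals of arrays of different groups correlated at -0.00686 to 0.175 with the same replicate number and at -0.197 to 0.0648 with different numbers, so the numbers were not taken as pairs.

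With normexp and its faulty backgrounds replaced, the medians of 5 lists shrank, to 1.35 for inhibitory receptors, 0.87 for homing receptors, 0.65 for S100 and related genes, -0.78 for interferon-stimulated genes and 1.57 for regulatory T cell markers. With slide as a block, 18 of the 87 named common genes left the window.

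Among values past the threshold in either setting, sign changes came with slide as a block for Tmsb10 (change 0.013) and with normexp for the change of Gpr83 (0.036) and for Th17 minus Th1 of Ezr (0.16), Mvd (-0.14), Pfkp (0.097), Ccna2 (-0.19), Klrk1 (-0.20), Cd3e (0.093) and Cd4 (0.0055). The sign changes with normexp came with the fit that failed on Th1 replicate 2. With its faulty backgrounds replaced, none of these signs turned. The cause of the sign change of Tmsb10 was not tested. Values past it in neither setting also turned with slide as a block, Ptprc among them (0.34). Levels below background give bounds only.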
